A study of Homo sapiens with 8 samples.

Results

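The genes described here carry glucose into the cell and turn it into lactate. The list held 10 genes in the order of the pathway, namely SLC2A1, HK1, HK2, GPI, PFKP, ALDOA, PGK1, ENO1, PKM and LDHA. The array probes taken were those whose RefSeq accession matched 1 of these genes, so a probe under another name could be missed. By RefSeq accession, 9 of the 10 genes were found with 12 probes, out of 22439 gene symbols with a probe. ALDOA could not be matched through the gene table used here and is not analysed here. All 9 genes had at least 1 probe well above background on all 8 arrays, the condition under which a gene counted as measured, and so did 10956 genes in all. The list was not chosen by a measured value, so the comparisons below could be tested. Its members and the adjoining lists were, however, chosen with earlier results of these data known, so their counts are not an unbiased sample of genes. SLC2A1 also stands in the table of direct miR-634 targets that the study drew up in part from these same arrays. Its rise is therefore not independent evidence.

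A431 is a human cutaneous squamous cell carcinoma line. It received 10 nM of either miR-NC, a negative control, or miR-634 by transfection, and lysis followed 24 h later. RNA bound to AGO2 was taken by RNP immunoprecipitation (RIP), and the 4 groups, input and RIP of the cells with miR-NC and input and RIP of those with miR-634, were each hybridized in duplicate on 1-color Agilent arrays. The study's methods describe the input as total RNA, whereas the labels of the input samples name a normal rabbit IgG antibody. All groups therefore shared the line, the transfection and the time, and the miR-NC and miR-634 groups differed in the transfected RNA. The sources do not say whether the 2 arrays of a group came from separate transfections, so the p-values measure only the spread between these samples, which may be technical. Each comparison asked which transcripts gathered on AGO2 when miR-634 was present, which the study expressed as the ratio of RIP/input under miR-634 to that under miR-NC, called fold change of enrichment.

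Glucose enters most cells through facilitative carriers of the GLUT family, is trapped by phosphorylation and is split into a pair of triose phosphates that are oxidized to pyruvate. Tumor cells commonly reduce much of this pyruvate to lactate even with oxygen present, the Warburg effect, and GLUT1 is abundant in squamous carcinomas and in the basal layer of the epidermis. AGO2 is the protein that holds a miRNA and, through it, the mRNAs with which the seed of the miRNA pairs.

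The mature miR-634 is shown because its seed is what pairs with an mRNA. It is taken from RefSeq (GRCh38.p14, chr17:66787132-66787153, plus strand, within the span of the protein-coding gene PRKCA), written 5′ to 3′ with the seed (bases 2 to 8) in capitals.
miR-634: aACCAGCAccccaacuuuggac
Of the 2370 mature human miRNA names in the same table, 0 others had this seed. An mRNA that pairs with all 7 seed bases holds UGCUGGU. The transcripts of the glycolytic genes were not searched for these letters, since no transcript sequences were used here.

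Levels below are log2 intensity minus the 75th percentile of the same array over the probes well above background on all 8 arrays. A level says how bright 1 probe was relative to the rest of its array. The levels of different probes are therefore not compared, and fewer cells with a transcript cannot be told apart from less of it per cell. Enrichment is the RIP level minus the input level (log2 RIP/input), and a gene was called when the adjusted p of limma over all 10956 genes was under 0.05. Before scaling, that percentile lay between 11.38 and 11.53 on the input arrays, at 9.39 and 9.48 for the RIP of miR-NC cells and at 10.38 and 10.43 for that of miR-634 cells (log2 intensity). The share of probes well above background was 45.6% to 45.8% for the inputs, 33.6% and 34.5% for the RIP of miR-NC cells and 40.0% for both RIP arrays of miR-634 cells. The part of these differences in the results below was not tested. The median SD between the 2 arrays of a group lay between 0.04 and 0.06 on the log2 scale. The 10 squamous epithelial markers, such as KRT5, KRT14, TP63 and EGFR, were well above background on all 8 arrays, as were CD14, VWF and CDH5 among 14 markers of immune, fibroblast, endothelial and melanocyte cells, whereas CD3E, COL1A2, COL3A1, PECAM1, MLANA and TYR were so on no array. All arrays lay on 1 slide, with input and RIP in separate rows and miR-NC and miR-634 in separate columns, so that position and group cannot be told apart.

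Along the pathway, the fold change of enrichment was higher in miR-634 cells for 5 of the 9 measured genes (SLC2A1, HK1, GPI, PGK1 and LDHA), lower for PFKP alone, and not called for HK2, ENO1 and PKM. The largest called changes stood at the entry step and the last step, with 3.47-fold for the glucose carrier SLC2A1 and 2.56-fold for the lactate dehydrogenase subunit LDHA. Among all measured genes the corresponding shares were 28.1% higher and 43.3% lower. The median log2 fold change of enrichment was 0.34 over the 9 genes and -0.22 over all genes. The direction of a small change depended on the scaling, because scaling on the spike-in probes added 1.09 to the log2 value of every gene, whereupon PFKP turned to 0.51 and the calls among the 9 genes became 7 higher and 0 lower.

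SLC2A1 (NM_006516) encodes GLUT1, which brings glucose across the plasma membrane. Its level was 2.50 and 2.47 on miR-NC input, 1.54 and 1.52 on miR-NC RIP, 2.18 and 2.11 on miR-634 input, and 3.04 and 2.93 on miR-634 RIP arrays. No 2 groups overlapped, and the RIP arrays were below the input arrays with miR-NC and above them with miR-634. The share of all genes whose groups do not overlap was not counted, here or below. The enrichment of SLC2A1 was -0.96 under miR-NC and 0.84 under miR-634, a sign change that was lost with spike-in scaling, where the value in miR-634 cells was -0.60. The fold change of enrichment was 3.47 (log2 1.79, SE 0.08, adjusted p = 4.61e-06), and it was 3.52 and 3.41 when the arrays numbered 1 and those numbered 2 were taken apart. SLC2A1 was the only 1 of the 9 called lower in the input, where it fell by 0.34 on the log2 scale (adjusted p = 0.00751), while it rose by 1.45 in the RIP. The fall in the input did not pass the threshold without miR-NC input replicate 1 (-0.33) or without miR-634 input replicate 2 (-0.31). Nor did it pass with no filter (adjusted p = 0.0555) or by the t-test of the study's methods after Benjamini-Hochberg adjustment (adjusted p = 0.0778). By fold change of enrichment SLC2A1 ranked 569 from the highest of 10956 genes.

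**Figure D1:**
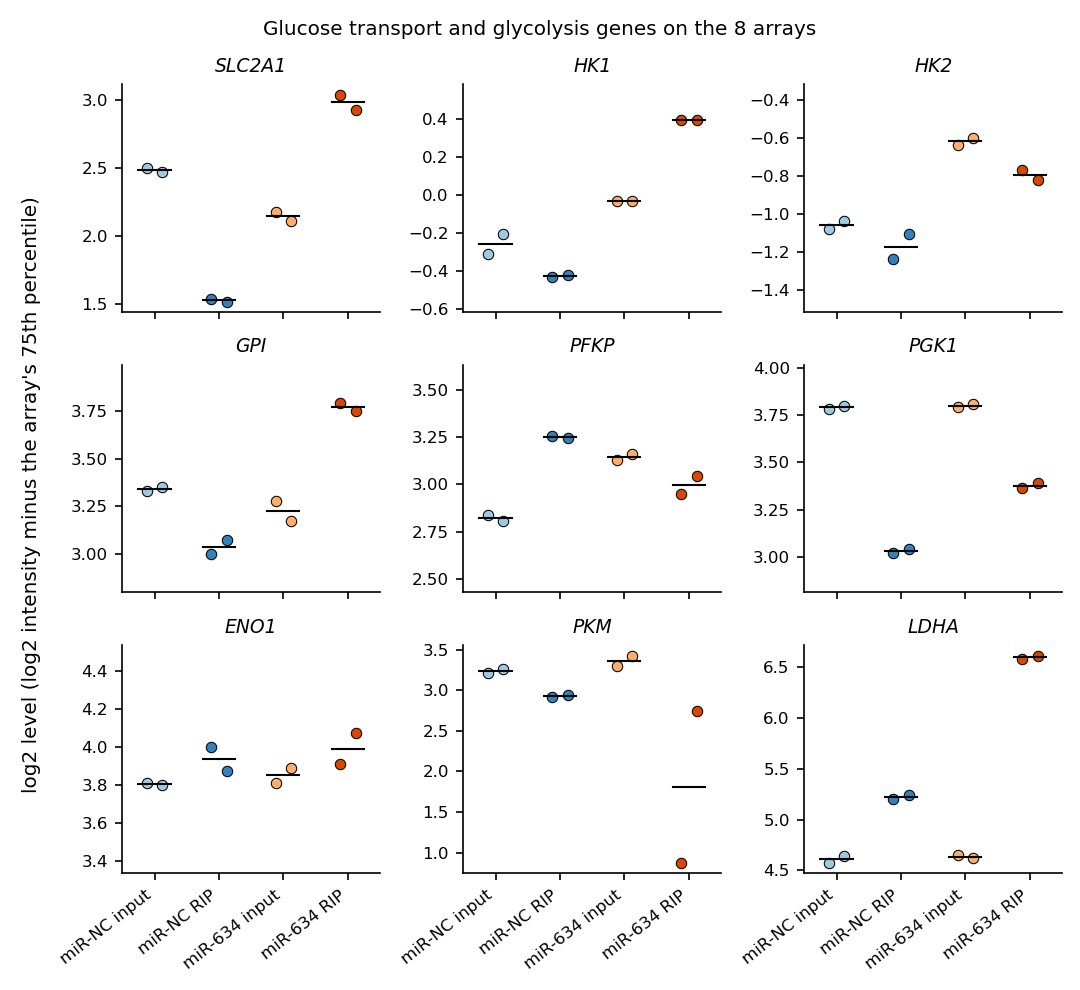
Log2 level (log2 intensity minus the 75th percentile of the array) of the brightest probe of each of the 9 measured genes on the 8 arrays; points are single arrays, lines are group means, and each panel has its own axis. The miR-634 RIP arrays stand highest for SLC2A1, HK1, GPI and LDHA, and the 2 miR-634 RIP arrays of PKM lie far apart, at 0.88 and 2.74.

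HK1 and HK2 encode hexokinases, which phosphorylate glucose in the first step and keep it in the cell. Of the pair, HK1 was called in fold change of enrichment and HK2 was not, and the difference between them was not tested. HK1 (NM_033500) had levels of -0.31 and -0.20 on miR-NC input, -0.43 and -0.42 on miR-NC RIP, -0.03 and -0.03 on miR-634 input, and 0.40 and 0.40 on miR-634 RIP arrays. It was highest on the miR-634 RIP arrays, and the groups did not overlap. HK1 enrichment went from -0.17 under miR-NC to 0.43 under miR-634, though both were below 0 with spike-in scaling (-1.01 in miR-634 cells). The fold change of enrichment was 1.51 (log2 0.60, SE 0.07, adjusted p = 0.000368). HK1 also rose in the input by a log2 value of 0.23 (adjusted p = 0.0219). This call was lost without miR-NC input replicate 1 (0.17) and without either miR-634 input array (0.23 and 0.22). It was also lost with the authors' values, the percentile over all probes and no filter (adjusted p = 0.0608, 0.0609 and 0.118). With spike-in scaling the input change was 0.0038 (adjusted p = 0.992).

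HK2 (NM_000189), the inducible isoform that is often abundant in tumors, had levels of -1.08 and -1.04 on miR-NC input, -1.24 and -1.11 on miR-NC RIP, -0.64 and -0.60 on miR-634 input, and -0.77 and -0.82 on miR-634 RIP arrays. Both kinds of array were thus higher in miR-634 cells, and the RIP arrays stood slightly below the input arrays in both kinds of cell. In the input HK2 rose by a log2 value of 0.44 (adjusted p = 0.00421), and in the RIP by 0.38 (adjusted p = 0.00106). The rise in the input was 0.22 and not called with spike-in scaling (adjusted p = 0.472). It was also not called by the t-test of the study's methods after Benjamini-Hochberg adjustment (adjusted p = 0.0592). The log2 fold change of enrichment was -0.07, with a 95% interval from -0.27 to 0.13 (adjusted p = 0.494), and it was 1.02 with spike-in scaling. A second HK2 probe was well above background on only 1 of the 8 arrays and gives no fold change.

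GPI (NM_000175) encodes glucose-6-phosphate isomerase, which makes fructose 6-phosphate. Its levels were 3.33 and 3.35 on miR-NC input, 3.0 and 3.07 on miR-NC RIP, 3.28 and 3.17 on miR-634 input, and 3.79 and 3.75 on miR-634 RIP arrays. As with SLC2A1 and HK1, RIP was below input with miR-NC and above it with miR-634. The enrichment was -0.31 under miR-NC and 0.55 under miR-634, and with spike-in scaling the latter was -0.89. The fold change of enrichment was 1.81 (log2 0.86, SE 0.08, adjusted p = 0.000115), and it was 1.80 and 1.82 for the arrays numbered 1 and 2. The input change of GPI was not called (-0.12, adjusted p = 0.172).

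PFKP (NM_002627) is the platelet isoform of phosphofructokinase, which commits the sugar to glycolysis. It had the only called fall of enrichment among the 9 genes, a direction that turned with spike-in scaling. Levels of its brighter probe were 2.84 and 2.81 on miR-NC input, 3.25 and 3.24 on miR-NC RIP, 3.13 and 3.16 on miR-634 input, and 2.95 and 3.04 on miR-634 RIP arrays. RIP stood above input with miR-NC and below it with miR-634. The log2 enrichment was 0.43 under miR-NC, which spike-in scaling turned to -2.10, and -0.15 under miR-634, which turned to 0.03 when each comparison was centred on the median gene. The log2 fold change of enrichment fell by 0.57 (SE 0.07, adjusted p = 0.000443) but was 0.51 with spike-in scaling. In the input, PFKP rose by 0.32 (adjusted p = 0.00684). This call was lost without miR-NC input replicate 2 (0.30) and without miR-634 input replicate 2 (0.30). It was also lost with no filter (adjusted p = 0.0527) and with spike-in scaling (0.099, adjusted p = 0.762). The RIP change was -0.25 (adjusted p = 0.00326) and was -0.07 after centring on the median gene (adjusted p = 0.226). A second PFKP probe, designed on NM_001242339, gave log2 fold changes of enrichment of -0.54 against -0.57 for the brighter probe, in a fit over 16805 probes.

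**Figure D2:**
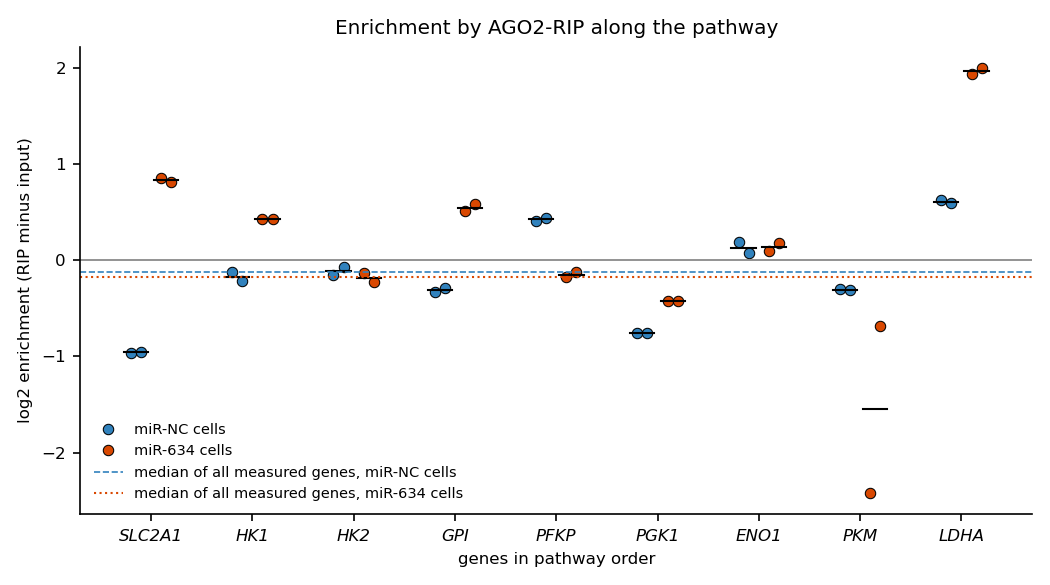
Log2 enrichment (RIP minus input) of the 9 measured genes in pathway order, with miR-NC or miR-634; points pair the arrays by number, black lines are means, and the broken lines are the medians over all measured genes in each kind of cell. SLC2A1, HK1 and GPI pass from below 0 to above 0, PFKP passes the other way, and LDHA is above 0 in both; with spike-in scaling all of these but LDHA in miR-634 cells were below 0.

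After the aldolase step, which ALDOA carries out, come triose phosphate isomerase and glyceraldehyde-3-phosphate dehydrogenase. Their genes TPI1 and GAPDH are not on the list of 10 but lie between its members. Both had a log2 fold change of enrichment of -0.36 (adjusted p = 0.00374 and 0.00311), which became 0.72 for each with spike-in scaling. On centring on the median gene both were -0.15 and not called. GAPDH levels were 5.08 and 5.07 on miR-NC input, 4.22 and 4.14 on miR-NC RIP, 4.91 and 4.92 on miR-634 input, and 3.64 and 3.69 on miR-634 RIP arrays, so that RIP was far below input in both kinds of cell.

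PGK1 (NM_000291) encodes phosphoglycerate kinase, the first ATP-yielding step. Its levels were 3.78 and 3.80 on miR-NC input, 3.02 and 3.05 on miR-NC RIP, 3.79 and 3.81 on miR-634 input, and 3.37 and 3.39 on miR-634 RIP arrays. The input arrays of the 2 kinds of cell overlapped, and RIP stayed below input in both. PGK1 enrichment was -0.76 under miR-NC and -0.42 under miR-634, and the fold change of enrichment was 1.26 (log2 0.34, SE 0.06, adjusted p = 0.00218). This was the smallest of the 5 called rises. PGAM1, the phosphoglycerate mutase of the next step and not one of the 10, had a log2 fold change of enrichment of 0.72 (adjusted p = 0.000117). A second PGAM1 probe had larger values, 1.14 for the arrays numbered 1 and 1.25 for those numbered 2.

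ENO1 (NM_001428) encodes alpha-enolase, which forms phosphoenolpyruvate. Its levels were 3.81 and 3.80 on miR-NC input, 4.0 and 3.88 on miR-NC RIP, 3.81 and 3.89 on miR-634 input, and 3.91 and 4.07 on miR-634 RIP arrays. The RIP arrays of the 2 kinds of cell overlapped, and their input arrays nearly met. The log2 enrichment was 0.13 under miR-NC and 0.14 under miR-634, and neither was called. The value under miR-634 was called, at 0.25 or less, with the authors' values, the percentile over all probes and median scaling (adjusted p = 0.0151, 0.0153 and 0.0202), at 0.31 after centring on the median gene (adjusted p = 0.00616), and at 0.22 without miR-634 RIP replicate 1 (adjusted p = 0.0347). The RIP change of ENO1, 0.05, was not called but was 0.23 and called with the authors' values, the percentile over all probes and centring (adjusted p = 0.0266, 0.027 and 0.0246), and centring also called the enrichment under miR-NC (0.26, adjusted p = 0.0163). The log2 fold change of enrichment was 0.0077 with a 95% interval from -0.24 to 0.26 (adjusted p = 0.95). With spike-in scaling it was 1.1 and called.

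PKM (NM_182470) encodes the pyruvate kinases of most tissues, including the M2 isoform of proliferating cells. Levels were 3.21 and 3.26 on miR-NC input, 2.91 and 2.94 on miR-NC RIP, 3.30 and 3.43 on miR-634 input, and 0.88 and 2.74 on miR-634 RIP arrays. The first miR-634 RIP array stood apart from the second, with an intensity of 2530 against 8891. The scanner software marked the local background of that spot as a population outlier, with a background signal of 67. The same mark stood on 1 spot each of GPI and of both HK2 probes, and the part of the mark in the PKM value was not tested. The log2 fold change of enrichment was -1.24 with a 95% interval from -3.04 to 0.55 (adjusted p = 0.175). Without miR-634 RIP replicate 1 it was -0.31 (adjusted p = 0.0264), and without replicate 2 it was -2.18 (adjusted p = 3.63e-05). It was -0.16 with spike-in scaling. The size of a PKM change therefore could not be told from these arrays.

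LDHA (NM_005566) encodes the M subunit of lactate dehydrogenase, which reduces pyruvate to lactate. Its brighter probe had levels of 4.58 and 4.64 on miR-NC input, 5.20 and 5.24 on miR-NC RIP, 4.65 and 4.62 on miR-634 input, and 6.59 and 6.62 on miR-634 RIP arrays. The input arrays of the 2 kinds of cell overlapped, and RIP stood above input in both. Enrichment was 0.61 under miR-NC and 1.97 under miR-634, with -1.91 in miR-NC cells under spike-in scaling. The fold change of enrichment was 2.56 (log2 1.35, SE 0.07, adjusted p = 8.23e-06), rank 972 of 10956 from the highest. A second LDHA probe on the same accession had levels of 2.69 and 2.70 on miR-NC input, 3.11 and 3.07 on miR-NC RIP, 2.70 and 2.67 on miR-634 input, and 4.79 and 4.88 on miR-634 RIP arrays. It too was highest on miR-634 RIP and next highest on miR-NC RIP arrays, with a larger fold change of enrichment, 3.39 (log2 1.76), in the fit over probes. The input change of LDHA was 0.03 with a 95% interval from -0.09 to 0.14 (adjusted p = 0.737).

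**Figure D3:**
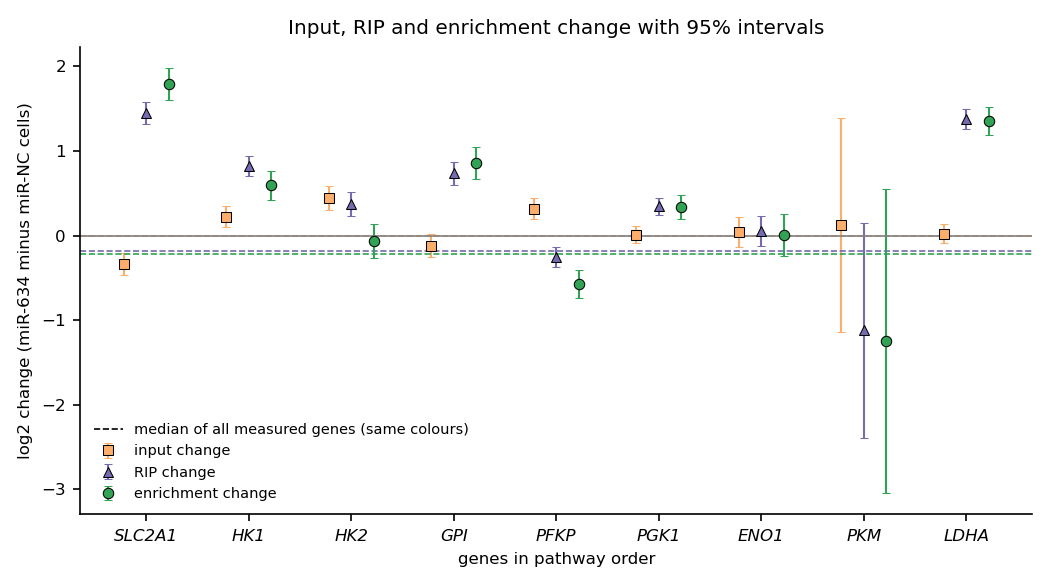
Log2 change between miR-634 and miR-NC cells in the input, in the RIP and in the enrichment for the 9 measured genes in pathway order, with 95% intervals of the limma fit; broken lines are the medians over all measured genes. The RIP and enrichment changes of SLC2A1 and LDHA lie highest, the input changes stay between -0.34 and 0.44, and the intervals of PKM span more than those of any other gene shown.

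Taking the input alone, HK1, HK2 and PFKP were called higher and SLC2A1 lower in miR-634 cells, that is 3 and 1 of the 9 genes, where 11.7% and 12.1% of all genes were called. The 5 other genes, GPI, PGK1, ENO1, PKM and LDHA, were not called, with log2 values from -0.12 to 0.13. The methods' t-test kept 2 of the 3 rises and the fall at its own threshold but called 0 of the 9 genes in the input after Benjamini-Hochberg adjustment. In the RIP, 6 genes (SLC2A1, HK1, HK2, GPI, PGK1 and LDHA) were called higher and PFKP lower, beside 30.9% and 46.5% of all genes. The median RIP change was 0.38 over the 9 genes and -0.18 over all genes. For SLC2A1 and LDHA the RIP changes, 1.45 and 1.38, were larger than any input change among the 9 genes.

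Within miR-NC cells, PFKP and LDHA were enriched by RIP and SLC2A1, PGK1, GPI and HK1 were depleted, 2 and 4 of the 9, beside 33.6% and 45.3% of all genes. Within miR-634 cells, LDHA, SLC2A1, GPI and HK1 were enriched and HK2, PFKP, PGK1 and PKM were depleted, 4 and 4, beside 36.1% and 48.3%. Levels scaled within an array cannot give the sign of enrichment in absolute terms. With spike-in scaling 9 of the 9 genes were depleted with miR-NC and 8 with miR-634, with LDHA the 1 enriched. Whether spike-in scaling gives the absolute sign was not tested. The mean log2 signal of the spike-in probes was 13.48 and 13.74 on the 2 miR-634 input arrays. The depletions of HK2 (-0.18, adjusted p = 0.0249) and PFKP (-0.15, adjusted p = 0.0287) in miR-634 cells were lost with the percentile over all probes (adjusted p = 0.509 and 0.639). The same held for the authors' values (adjusted p = 0.501 and 0.626), median scaling (0.222 and 0.357), no filter (0.0609 and 0.0715) and centring on the median gene (0.913 and 0.645). These depletions were also not called without either miR-634 input array. That of PKM was -1.55 (adjusted p = 0.0292) and -0.62 without miR-634 RIP replicate 1, and it was not called without either miR-634 input array (adjusted p = 0.0855 and 0.106). The depletion of HK1 in miR-NC cells, -0.17, was not called without miR-NC input replicate 2 (adjusted p = 0.12) or without miR-NC RIP replicate 1 (adjusted p = 0.058), nor with median scaling, the authors' values, the percentile over all probes or centring on the median gene (adjusted p = 0.0601, 0.0815, 0.0846 and 0.428).

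The 5 genes whose pattern over the 8 arrays was most like that of SLC2A1 were NUSAP1, WDR41, WDR43, BLVRA and TMEM50A. Likeness was the root mean square distance on the log2 scale after each gene was centred on its own mean. It ran from 0.05 for NUSAP1 to 0.09 for TMEM50A, against a median of 0.72 over all genes. None of these is a glycolytic enzyme. Their log2 fold changes of enrichment lay between 1.61 and 1.94, near that of SLC2A1, which follows from choosing them by likeness on these same arrays.

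Of 14 other glucose transporter genes, 3 were measured, SLC2A6, SLC2A8 and SLC2A9. SLC2A2, SLC2A3, SLC2A12, SLC2A14 and SLC5A1, named after their values were seen, were well above background on no array. SLC2A6 and SLC2A8, carriers found largely on intracellular membranes, had log2 fold changes of enrichment of -0.33 and -0.30 (adjusted p = 0.00425 and 0.0109), which spike-in scaling turned to 0.76 and 0.79 and which were not called after centring on the median gene (-0.11 and -0.08). A second SLC2A6 probe, also well above background on all 8 arrays, had larger falls. Its values were -0.64 for the arrays numbered 1 and -0.55 for those numbered 2, and no test of it is given here. SLC2A9, a urate carrier named after its values were seen, was not called (-0.03). SLC2A10 was well above background on 7 of the 8 arrays and so was not tested, and its log2 fold change of enrichment, named after its values were seen, was 3.01 for the arrays numbered 1 and 2.48 for those numbered 2.

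Of 22 other glycolytic enzyme genes, 12 were measured, with 4 called higher, 5 lower and 3 not called, shares near the 28.1% and 43.3% over all genes. The largest rise was that of ADPGK, the ADP-dependent glucokinase, at 3.66-fold (log2 1.87, adjusted p = 1.04e-05). Its levels were -0.24 and -0.13 on miR-NC input, -1.52 and -1.51 on miR-NC RIP, -0.13 and -0.30 on miR-634 input, and 0.31 and 0.35 on miR-634 RIP arrays. As for SLC2A1, RIP lay below input with miR-NC and above it with miR-634, and ADPGK too stands in the study's table of targets drawn up from these arrays. A second ADPGK probe had smaller log2 values, 1.38 and 1.46 for the arrays numbered 1 and 2. BPGM, which makes 2,3-bisphosphoglycerate, rose by a log2 value of 0.86. PGAM1 at 0.72 and PGAM4 at 0.53 also rose, but they are near-identical copies whose probes may share transcripts. LDHB, the H subunit of lactate dehydrogenase, fell by 0.45 (adjusted p = 0.00373), against the rise of LDHA by 1.35, and with spike-in scaling the values were 0.64 and 2.44. The fall of LDHB was not called with the authors' values (adjusted p = 0.0605), the percentile over all probes (0.0616) or centring on the median gene (-0.23, adjusted p = 0.0562). A second LDHB probe had log2 values of -0.48 and -0.69 for the arrays numbered 1 and 2. The other lower genes were TPI1, GAPDH and, named after their values were seen, ENO2 and ALDOC (-0.32 and -0.26), while PFKL, PFKM and PGAM2, also named then, were not called (0.37, -0.06 and 0.58). Spike-in scaling brought all 5 lower genes above 0. Input changes of the 12 lay between -0.15 and 0.26.

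PFKFB enzymes make and break fructose 2,6-bisphosphate, the strongest allosteric activator of phosphofructokinase. All 3 measured genes of the 5 on that list were called higher in enrichment by limma, beside 28.1% of all genes. PFKFB2 rose by 1.57 (adjusted p = 1.4e-05), PFKFB4 by 0.56 (adjusted p = 0.000652) and PFKFB3 by 0.47 (adjusted p = 0.00268). The rise of PFKFB3 was not called by the t-test of the study's methods, before or after Benjamini-Hochberg adjustment. PFKFB2 levels were -1.05 and -1.15 on miR-NC input, -1.67 and -1.74 on miR-NC RIP, -1.62 and -1.61 on miR-634 input, and -0.59 and -0.71 on miR-634 RIP arrays. Like SLC2A1, PFKFB2 was lower in the miR-634 input, by 0.52 on the log2 scale (adjusted p = 0.003), and higher in the miR-634 RIP.

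**Figure D4:**
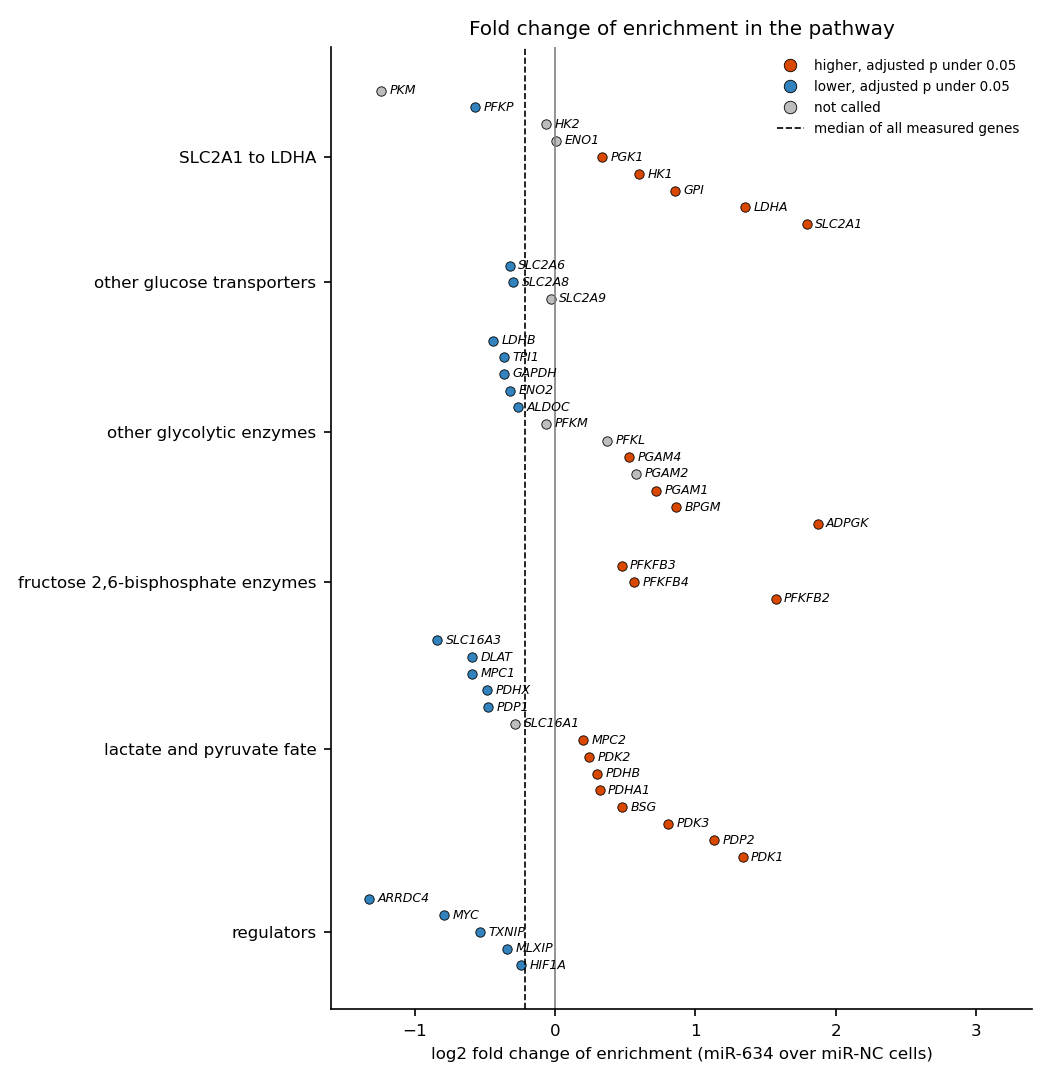
Log2 fold change of enrichment (miR-634 over miR-NC cells) of each measured gene of glucose transport, glycolysis and the adjoining lists, colored by the call of limma; the broken line is the median of all measured genes. SLC2A1 (1.79), ADPGK (1.87) and PFKFB2 (1.57) lie farthest to the right; spike-in scaling moves every point to the right by 1.09, which leaves only ARRDC4 and PKM below 0.

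At the fate of pyruvate and lactate, 14 of 17 genes were measured, with 8 called higher, 5 lower and 1 not called, beside 28.1% and 43.3% of all genes. PDK1, a kinase that switches off pyruvate dehydrogenase, rose by 1.34 (adjusted p = 1.67e-05), and PDP2, a phosphatase that switches it on, rose by 1.13 (adjusted p = 3.62e-05). SLC16A3, the lactate exporter MCT4, fell by 0.84 (adjusted p = 6.54e-05), a direction that spike-in scaling turned (0.25). The other 4 lower genes, named after their values were seen, were MPC1, DLAT, PDHX and PDP1, with values from -0.59 to -0.48. Spike-in scaling turned these 4 as well, to values from 0.49 to 0.61. SLC16A1 was not called (-0.28). Among the genes that act on pyruvate dehydrogenase, PDK2 (0.24) and PDK3 (0.81), also named after their values were seen, rose with PDK1. The phosphatases PDP1 and PDP2 were called in opposite directions, though PDP1 was above 0 with spike-in scaling (0.61).

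All 5 measured regulators of the 7 listed were called lower, beside 43.3% of all genes, though with spike-in scaling 4 of the 5 were above 0. MLXIPL and GCKR did not meet the condition for being measured. ARRDC4, an arrestin that is induced by glucose and lowers glucose uptake, was at -1.33 (adjusted p = 0.000416), MYC, a transcription factor that drives many glycolytic genes, at -0.79 (adjusted p = 0.000412) and TXNIP, which also lowers uptake through GLUT1, at -0.53 (adjusted p = 0.00297). HIF1A and MLXIP, transcription factors that respond to low oxygen and to sugar phosphates and that are named after their values were seen, were at -0.24 and -0.34, near the median of -0.22 over all genes. With spike-in scaling 16 of the 17 listed genes with a called fall were above 0, with ARRDC4 the exception (-0.24, adjusted p = 0.421). TXNIP alone of the 5 was called lower in the input, by 0.68 on the log2 scale (adjusted p = 0.00181). Its levels were -2.50 and -2.55 on miR-NC input against -3.16 and -3.24 on miR-634 input arrays, and the groups did not overlap.

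**Figure D5:**
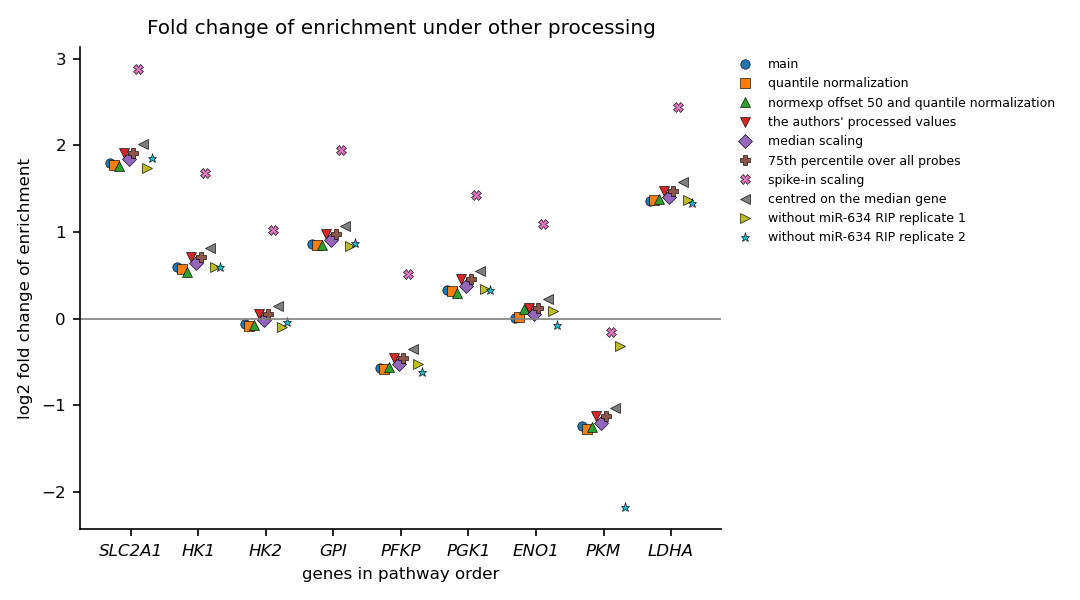
Log2 fold change of enrichment of the 9 measured genes in pathway order under the main processing and 9 others. SLC2A1, LDHA, GPI, HK1 and PGK1 stay above 0 throughout, spike-in scaling lies highest for every gene, and PKM is at -0.31 and -2.18 when 1 or the other of its miR-634 RIP arrays is left out.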

How the data were processed

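AGO2-RIP and input RNA of A431 cells were measured on 8 arrays. As deposited by the authors, the scanner files hold spot intensities, read by Agilent Feature Extraction (9.1 in the submitters' notes, 12.0.1.1 in the file headers) with background subtracted and without normalization between arrays. They also deposited log2 values scaled to the 75th percentile and centred per probe, used here as an alternative. Control and outlier spots were left out, spots of a probe were averaged, log2 was taken, and the 75th percentile of an array was subtracted from it, taken over the 16805 of 58201 probes well above background on all 8 arrays. No spot was saturated (0 marked). Of 33080 probes with a RefSeq accession, 31104 matched the RefSeq table of GRCh38.p14. The array design uses hg19, so gene coordinates are not printed. The brightest measured probe stood for a gene. Group means were fitted with limma 3.58.1 in R 4.3.3 (lmFit, eBayes), with Benjamini-Hochberg adjustment over 10956 genes and a threshold of 0.05. The number of arrays limits the precision.

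Named genes are the list of 10, GAPDH, TPI1, PGAM1, ADPGK, up to 3 further genes per adjoining list with the largest called fold changes of enrichment, and the 5 closest to SLC2A1. Members and lists were chosen with earlier results of these data known. Alternatives were normexp (offset 50, on the median spot signal) with quantile normalization, quantile normalization, the authors' values, median, all-probe and spike-in scaling (7 of 10 spike-in probes, those well above background on all arrays), an input-only filter, no filter, averaged probes, a variance trend with intensity, a replicate block, leaving out arrays singly, the methods' t-test, a cutoff at XIAP's fold change and, chosen after seeing the data, centring on the median gene. The fit was tested on simulated data. Figures were drawn in matplotlib 3.10.9 (Python 3.11.15, pandas 2.3.3).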

Additional observations from a re-analysis of the deposited data

Results flagged for a closer look

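For 6 of the 9 measured genes the enrichment by RIP differed between miR-634 and miR-NC cells by the test of the difference itself (limma, adjusted p under 0.05 over all genes), 5 higher and 1 lower. Over all genes 28.1% were called higher and 43.3% lower, so that a called difference is common on these arrays. The log2 differences were 1.79 for SLC2A1, 0.60 for HK1, 0.86 for GPI, 0.34 for PGK1 and 1.35 for LDHA, and -0.57 for PFKP, whose sign turned with spike-in scaling. Groups of 2 arrays are too small for a test of single outlying arrays, so the first miR-634 RIP array of PKM is given above as a value.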

How the results depend on the processing

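The 5 genes called higher in fold change of enrichment stayed higher when each array was left out, and the count of 6 higher in the RIP did so too. With spike-in scaling the median gene moved from -0.22 to 0.87. Members called lower were then 0 in the enrichment change and 0 in the RIP, members higher 0 in the input, 0 higher and 9 lower in miR-NC enrichment, and 1 higher and 8 lower in miR-634 enrichment. Fold changes of enrichment became 1.02 (HK2), 0.51 (PFKP), 0.72 (GAPDH), 0.72 (TPI1), 0.76 (SLC2A6), 0.79 (SLC2A8), 0.64 (LDHB), 0.25 (SLC16A3), 0.29 (MYC) and 0.55 (TXNIP). Input changes became -0.21 (PGK1), -0.18 (ENO1), -0.095 (PKM) and -0.20 (LDHA), and the RIP change of PFKP 0.61. Enrichment in miR-NC cells became -2.10 (PFKP), -2.39 (ENO1) and -1.91 (LDHA), and in miR-634 cells -0.60 (SLC2A1), -1.01 (HK1), -0.89 (GPI) and -1.30 (ENO1). This scaling shifts each array by a constant, which is what turned these values.

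With the authors' values and with the percentile over all probes, 0 members were lower in the RIP, 2 lower in miR-634 enrichment, and the HK2 enrichment change was 0.0526 and 0.0522. Median scaling left 2 lower in miR-634 enrichment. Centring on the median gene left 0 lower in the RIP and 2 in miR-634 enrichment, and gave HK2 0.15 in enrichment change and 0.010 in miR-NC enrichment, and PFKP 0.026 in miR-634 enrichment. Without a filter, 1 member was higher and 0 lower in the input, and 1 lower in miR-634 enrichment. The methods' t-test after Benjamini-Hochberg adjustment called 0 higher and 0 lower in the input and 0 lower in the RIP. XIAP's fold change of enrichment was 1.37 here. Of the members called higher in the enrichment change, SLC2A1, LDHA, GPI (1.81) and HK1 (1.51) were above it and PGK1 (1.26) was below. With the main scaling, only SLC2A1 and LDHA were also above the cutoff of the study, which was higher and came from its own processing. The percentile over all probes added 0.119 to the log2 enrichment change of every gene, which takes GPI above that cutoff too. Quantile normalization turned the input change of the second LDHA probe to 0.018. The cause of the other changes was not tested.

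With 1 array left out, members lower ranged from 1 to 2 in the enrichment change, from 0 to 1 in the input, from 1 to 2 in the RIP, from 3 to 5 in miR-NC enrichment and from 1 to 4 in miR-634 enrichment, and members higher from 1 to 3 in the input and from 4 to 5 in miR-634 enrichment. ENO1 ranged from -0.072 to 0.088 in the enrichment change and from -0.026 to 0.13 in the RIP, and the LDHA input change from -0.0079, without miR-NC input replicate 1, to 0.059. A lone array was taken to vary like the other groups. Arrays of the same number did not deviate together (correlations from -0.04 to 0.08). With a replicate block, 5 members were higher and 1 lower in the enrichment change, and no call changed.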
